A study of Mus musculus with 3 samples.

Results

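Keratin genes and the genes of the desmosome, 61 of the 19938 genes with a named probe set, were examined in sorted ureteric duct cells of the mouse embryo. The set took every measured symbol made of Krt and digits, which gave 48 keratins, and 13 genes for desmosomal cadherins, plaque proteins and plakins. By textbook classes, 6 of the keratins belong to simple epithelium, 18 to stratified epithelium and 21 to hair and nail, and 3 were left unclassified. Each of the 61 genes had a single probe set. The data were 3 arrays of a single group with no control group. The embryos were of strain CD-1 at 10.5 days post coitum, Theiler stage 18, of unknown sex, and carried the transgene Tg(Hoxb7-EGFP)33Cos. The Hoxb7 promoter drives green fluorescent protein in the nephric duct and its derivatives. Per the labels, each sample was a single duct called ureteric trunk, without pooling. The dissected tissue was treated with trypsin and its fluorescent cells were sorted, and their RNA went through 1 round of amplification. The labels do not state whether separate embryos or litters were used, so p-values measure only how far these arrays spread, which may be technical.

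Keratins are the intermediate filament proteins of epithelia. Each filament is built from pairs of a type I and a type II keratin, and the pair in use differs between simple, stratified and hair-forming epithelia. Keratins 8 and 18 are the first pair made in the embryo and the usual pair of simple epithelia such as the nephric duct. Desmosomes anchor these filaments at cell contacts. Their cadherins, the desmogleins and desmocollins, bind across the gap between cells, the armadillo proteins plakoglobin and plakophilin sit in the plaque, and desmoplakin ties the plaque to keratin.

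A gene was called above background where its log2 signal exceeded a cutoff in a one-sided limma test with a Benjamini-Hochberg adjusted p under 0.05 over all 21789 named probe sets. On each array the cutoff was the 95th percentile of 1212 olfactory and vomeronasal receptor probe sets, genes of sensory neurons, and it averaged 5.71 log2 units over the arrays. Of all genes, 56.2% were called. All 9 measured markers of the nephric duct were called. Markers of other cells were called in 6 of 6 cases for endothelium, 1 of 5 for surface ectoderm, 2 of 4 for coelomic epithelium, 1 of 5 for endoderm, 1 of 5 for metanephric mesenchyme, 2 of 5 for stroma, 1 of 4 for macrophages and 1 of 4 measured for red cells. The mean of the endothelial list was 8.64, 7.84 and 8.70 log2 units on arrays 1, 2 and 3, and that of the red cell list 7.23, 5.32 and 5.34. In such sorted pools, fewer cells of a type and less RNA per cell cannot be told apart.

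Signals of the Krt8 and Krt18 pair lay 4.86 and 4.06 log2 units above the cutoff. Krt7, Krt87 and Krt10 passed by 1.62, 1.23 and 1.22, and the other keratins of the set lay at most 0.51 above the cutoff or below it. Of the 61 genes, 24 (39.3%) were called, against the 56.2% of all genes. Among the 48 keratins the count was 14 (29.2%), and among the desmosome and plakin genes it was 10 of 13 (76.9%). By class, 3 of 6 simple, 5 of 18 stratified, 6 of 21 hair and 0 of 3 unclassified keratins were called in the limma fit. The other 37 genes all had means below the mean cutoff, so none of them could have an unadjusted one-sided p under 0.05. The median signal was 6.37 log2 units for simple keratins, 5.30 for stratified keratins, 5.21 for hair keratins and 6.66 for the desmosome and plakin genes, against 6.04 for all genes and 4.10 for the receptor probe sets. Because affinity differs between probe sets, these medians describe the arrays and give no order of transcript amounts.

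**Figure D1:**
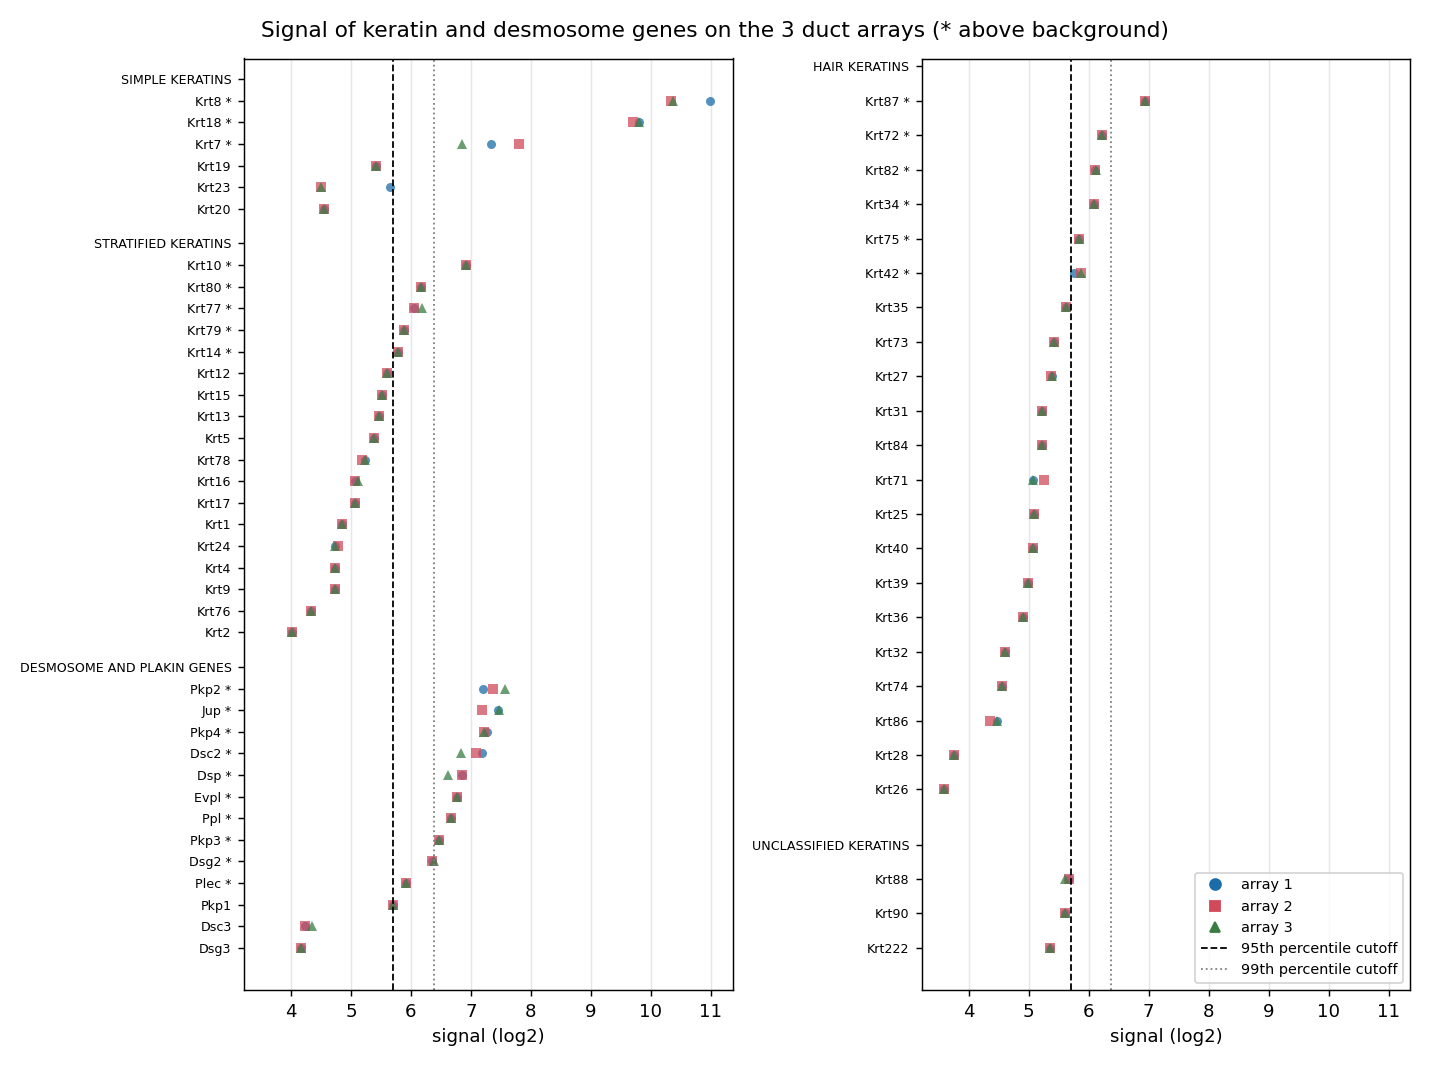
Log2 signal (horizontal axis) of each of the 61 genes on arrays 1, 2 and 3 (circles, squares and triangles), grouped by class and ordered by mean, with a star on the 24 genes above background. Dashed and dotted lines mark the mean cutoffs at the 95th percentile (5.71) and the 99th percentile (6.38) of the receptors; Krt8, Krt18 and Krt7 stand to the right and most stratified and hair keratins to the left.

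The promoters of the Krt8 and Krt18 pair are shown with those of Krt7 and Krt5, because these genes lie in a single cluster and hold both called and uncalled keratins. The 4 windows hold the 250 bases before the RefSeq start in assembly GRCm38.p6, written 5′ to 3′ on the gene's strand, with CpG dinucleotides in capitals. Krt8 is at chr15:102004343-102004592 on the minus strand, Krt18 at chr15:102027966-102028215 on the plus strand, Krt7 at chr15:101412153-101412402 on the plus strand, and Krt5, whose signal did not pass, at chr15:101712906-101713155 on the minus strand.
Krt8: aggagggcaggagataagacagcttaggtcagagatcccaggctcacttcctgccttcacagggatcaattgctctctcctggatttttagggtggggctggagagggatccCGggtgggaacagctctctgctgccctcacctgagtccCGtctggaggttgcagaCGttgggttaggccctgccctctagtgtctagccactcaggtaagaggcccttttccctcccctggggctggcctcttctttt
Krt18: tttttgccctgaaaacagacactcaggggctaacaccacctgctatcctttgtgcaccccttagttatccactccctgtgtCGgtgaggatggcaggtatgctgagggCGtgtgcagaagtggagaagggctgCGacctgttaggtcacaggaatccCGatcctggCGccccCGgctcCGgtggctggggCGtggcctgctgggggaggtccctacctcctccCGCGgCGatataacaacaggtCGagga
Krt7: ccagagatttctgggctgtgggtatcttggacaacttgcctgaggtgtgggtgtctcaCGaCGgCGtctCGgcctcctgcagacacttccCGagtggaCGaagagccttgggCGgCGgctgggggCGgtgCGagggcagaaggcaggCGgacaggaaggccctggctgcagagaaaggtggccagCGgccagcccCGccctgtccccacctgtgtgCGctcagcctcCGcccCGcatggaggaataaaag
Krt5: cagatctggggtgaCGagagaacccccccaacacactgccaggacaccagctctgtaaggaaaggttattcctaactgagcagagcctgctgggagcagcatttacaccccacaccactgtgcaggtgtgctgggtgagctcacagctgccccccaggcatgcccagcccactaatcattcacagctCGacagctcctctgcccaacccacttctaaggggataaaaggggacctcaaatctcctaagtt
Krt8 and Krt5 held 3 and 2 CpG dinucleotides in this window, and Krt18 and Krt7 held 12 and 16. The GC content was 58.0% for Krt8, 60.4% for Krt18, 66.0% for Krt7 and 56.0% for Krt5.

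Krt8, the type II keratin of simple epithelium, read 10.995, 10.33 and 10.37 log2 units on arrays 1, 2 and 3. Array 1 was the high one, and arrays 2 and 3 nearly coincided. Its mean of 10.56 ± 0.37 (SD, n = 3) lay 4.86 ± 0.18 log2 units (limma SE) above the cutoff, with a Benjamini-Hochberg adjusted p of 0.00013. Of all genes, 1.97% had a mean as high. Its type I partner Krt18 read 9.80, 9.71 and 9.80 and lay 4.06 ± 0.03 log2 units (limma SE) above the cutoff, with an adjusted p of 5.0e-06. Array 2 was slightly low for Krt18, and its range of 0.09 was smaller than the 0.66 of Krt8. None of the 1212 receptor probe sets had a mean as high as either gene. RefSeq lists 1 keratin pseudogene by name, Krt8-ps, and whether the Krt8 probe set also reads it is not known.

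Krt7, a type II keratin known from ducts and from the later urothelium, read 7.33, 7.81 and 6.86 log2 units on arrays 1, 2 and 3. Array 2 was high and array 3 low, a spread of 0.95 that only 3.50% of all genes matched or exceeded. Krt7 passed with a margin of 1.62 ± 0.21 log2 units (limma SE, adjusted p = 0.0041), and 3 receptor probe sets had means as high. At a cutoff 1 log2 unit higher, which 28.4% of all genes passed, it was not called, although its margin of 1.62 exceeded that raise.

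The other simple keratins did not pass. Krt19, a type I keratin listed here as a duct marker, held 5.41 log2 units on all 3 arrays, 0.30 below the mean cutoff (margin -0.30), and 121 receptor probe sets (9.98%) had means at least as high. Of the markers of simple duct epithelium, Krt7, Krt8 and Krt18 were thus called and Krt19 was not. Krt20, a keratin of terminally differentiated urothelium and gut, held 4.55 on every array. Krt23, a type I keratin, read 5.65 on array 1 and 4.51 on both others, below each array's cutoff. Its range of 1.14 log2 units was the widest among the 61 genes, and array 1 alone was high.

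Of the stratified keratins, 13 of 18 were not called, while 56.2% of all genes were called. Krt10, the type I keratin of differentiating epidermal layers, held 6.93 log2 units on all arrays and lay 1.22 above the cutoff (limma, adjusted p = 9.9e-06). Only 4 receptor probe sets had means as high. At 6.16 on every array, Krt80 followed, and Krt77 read 6.05, 6.05 and 6.18, with array 3 high. Krt79 and Krt14 each held a single value, 5.88 and 5.78, and Krt14, the type I keratin of basal cells in stratified epithelium, passed by 0.07 log2 units.

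The type II partner of Krt14 in basal cells, Krt5, read 5.3908, 5.3895 and 5.3895 and did not pass. Other keratins of basal or early surface ectoderm were uncalled as well: Krt15 at 5.51 and Krt17 at 5.07, each with a single value. Krt1 and Krt2, the type II keratins of the upper epidermis, held 4.85 and 4.02 on every array, and Krt2 was the lowest of its class. Krt24 read 4.74, 4.79 and 4.74, with array 2 high. For 282 receptor probe sets (23.3%) the mean was at least as high as that of Krt1.

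Hair keratins were uncalled in 15 of 21 cases. Those of the inner root sheath and companion layer passed in 2 of 9 cases and those of the hair shaft and nail in 4 of 12. Of all genes, 56.2% passed. Krt87, a type II hair keratin, held 6.94 log2 units on all arrays, 1.23 above the cutoff (limma, adjusted p = 9.7e-06). Krt72 at 6.21 and Krt34 at 6.09 held a single value each, and Krt82 read 6.10, 6.10 and 6.12. Krt75, the companion layer keratin, held 5.84, and the nail keratin Krt42 read 5.76, 5.88 and 5.88, with array 1 low. Both lay 0.13 log2 units above the cutoff. The lowest hair keratin was Krt26 at 3.59 on every array, and Krt71 had the widest range, with 5.07, 5.25 and 5.07.

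Few of the stratified and hair calls stood clear of the cutoff. With the 99th percentile as cutoff, which 36.1% of all genes passed, the keratins of the set called were 5, Krt8, Krt18, Krt7, Krt10 and Krt87. Krt14 did not pass without array 1 or without array 3, Krt42 without array 2 or without array 3, and Krt75 and Krt79 without array 3, where the stratified count was 3. Without array 3 limma gave every probe set a common spread, so that fit does not measure the spread of each gene. Single-valued genes have an SD of 0. Their limma SE comes only from the array cutoffs and limma's moderation, and it was the same 0.015 for Krt10 and Krt87. Their p-values thus do not measure the spread of the gene itself and are too small.

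**Figure D2:**
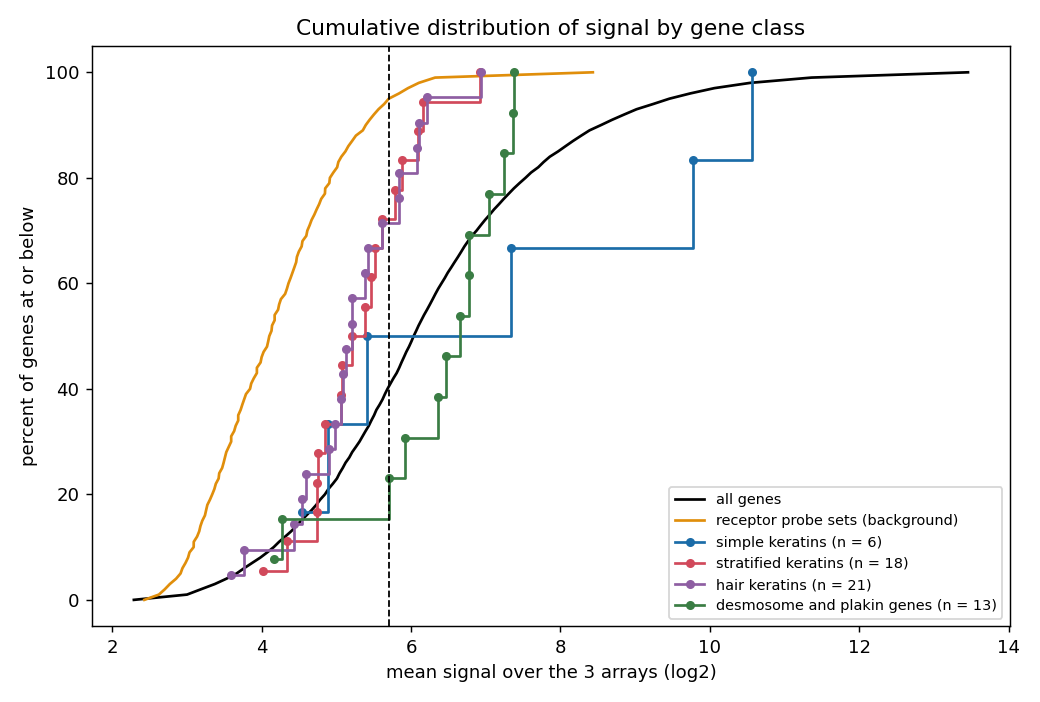
Percent of genes (vertical axis) with a mean log2 signal at or below the value on the horizontal axis, for all genes, the receptor probe sets and the 4 gene classes, with the mean cutoff of 5.71 as a dashed line. The stratified (n = 18) and hair (n = 21) curves nearly coincide between the receptors and all genes, with medians of 5.30 and 5.21, while 10 of the 13 desmosome and plakin genes lie to the right of the line.

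The stratified and hair classes covered much the same signals. Their highest means were 6.93 and 6.94 log2 units and their lowest 4.02 and 3.59. Their medians lay between the receptor median of 4.10 and the cutoff. In these classes 13 of 18 and 16 of 21 genes held a single value on all arrays, as did 50.8% of all genes, and none had a range over 0.5 log2 units, which 10.2% of all genes exceeded. Since 12 and 15 of them shared all 3 values with other probe sets, these ranges do not measure how stable the genes were.

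The desmosomal cadherins split by pair. Dsc2, the desmocollin present in simple epithelia, read 7.18, 7.09 and 6.84 log2 units on arrays 1, 2 and 3, with array 3 low. Its margin was 1.33 ± 0.08 (limma SE, adjusted p = 0.00051). Its partner Dsg2, the desmoglein present in simple epithelia, read 6.34, 6.34 and 6.39 and passed by 0.65, but did not pass at the 99th percentile. Dsc3 and Dsg3, the cadherins of the basal layers of stratified epithelium, read 4.23, 4.23 and 4.35, and 4.17 on every array. Neither was called, and 517 and 578 of the receptor probe sets had means at least as high.

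Plaque proteins of the armadillo family passed in 4 of 5 cases, against 56.2% of all genes. Pkp2, the plakophilin of simple epithelia and heart, read 7.21, 7.37 and 7.57 log2 units, lowest on array 1 and highest on array 3. Its margin was 1.67 ± 0.08 (limma SE, adjusted p = 0.00027). Jup, encoding plakoglobin, which also binds classical cadherins, read 7.45, 7.19 and 7.47, with array 2 low, and its margin was 1.66 ± 0.08 (limma SE, adjusted p = 0.00026). Pkp4, which is also found at adherens junctions, read 7.28, 7.22 and 7.22. Pkp3 held 6.47 on every array and did not pass at the 99th percentile (limma, adjusted p = 0.10). Pkp1, the plakophilin of stratified epithelium, held 5.71 and was the uncalled member, with a mean just under the mean cutoff.

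All 4 plakins, the linkers between filaments and junctions, were called, against 56.2% of all genes. Dsp, encoding desmoplakin, read 6.86, 6.86 and 6.61 log2 units, with array 3 low, and lay 1.07 ± 0.06 (limma SE) above the cutoff with an adjusted p of 0.00047. Evpl and Ppl, for envoplakin and periplakin, which are best known from the cornified envelope, held 6.77 and 6.66 on all arrays. Plec, for plectin, held 5.92, passed by 0.21, and was lost without array 3 and at the 99th percentile. At that percentile 7 of the 13 desmosome and plakin genes passed, against 36.1% of all genes. At a cutoff 1 log2 unit higher 5 did, namely Dsc2, Evpl, Jup, Pkp2 and Pkp4, against 28.4% of all genes. Dsp, with a mean of 6.776, was lost there, while Evpl, with a mean of 6.774, was kept. The limma SE was 0.064 for Dsp and 0.015 for the single-valued Evpl, so this list does not rank genes by signal.

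Desmosomal genes beyond this set passed in 1 of 5 measured cases, against 56.2% of all genes. Kazn, for a periplakin-binding protein, held 6.30, while Perp, a tetraspan protein of stratified desmosomes, read 5.66, 5.70 and 5.39 and did not pass. Dsg1b was lowest with a mean of 3.94. All 5 hemidesmosome genes, whose products anchor filaments to the basement membrane, were called. Among these were the integrin gene Itga6 at 8.29, 8.18 and 8.29, the tetraspanin gene Cd151 at 7.07, 6.99 and 7.07, and the integrin gene Itgb4 at 6.14 on all arrays.

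Of 13 other intermediate filament genes 5 passed (38.5%), against 56.2% of all genes. Vim, for the mesenchymal and endothelial filament protein vimentin, read 9.94, 9.24 and 9.94 log2 units on arrays 1, 2 and 3, and the lamin gene Lmnb1 read 9.68, 9.62 and 9.24. Nefm, for a neurofilament subunit, was lowest with a mean of 4.56. Vim was low on array 2, the array on which the endothelial list was also low; the part of endothelial cells in this was not tested. Keratin and filament partners passed in 7 of 7 cases, Dsp and Plec among them. Krtcap2, which despite its name encodes a subunit of the oligosaccharyltransferase, read 10.95, 10.35 and 10.97, and Krtcap3 read 7.67, 7.67 and 7.42.

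Regulators of stratified epithelium passed in 4 of 7 measured cases (57.1%), near the 56.2% of all genes. Klf5 and Klf4, transcription factors also used in simple epithelia, held 6.78 and 6.25, and Grhl1 at 5.15 was lowest. Trp63, the master regulator of stratified epithelium, read 5.38, 5.36 and 5.62, below the cutoff on every array. Cornified envelope genes passed in 3 of 6 measured cases (50%), also near that share. The transglutaminase genes Tgm3 and Tgm1 held 6.11 and 5.97, and Lor, for loricrin, was lowest at 5.01. Each of these 6 genes held a single value on all arrays.

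The keratins lie in a type I and a type II cluster, whose order was taken from RefSeq. Among the 47 keratins of the set with a protein-coding entry in RefSeq (all but Krt74), 9 of 21 type II genes (42.9%) and 5 of 26 type I genes (19.2%) were called, with Krt18 counted as type I. Both shares lay below the 56.2% of all genes, and the difference between them was not tested, since genes are not replicates. Of these calls, Krt14, Krt42, Krt75 and Krt79 were lost when the spread of single-valued probe sets was taken from the others. Krt18 is the type I gene at the end of the type II cluster, next to Krt8 among protein-coding genes. On the other side of Krt8 lay Krt78, at 5.23, 5.19 and 5.23 log2 units, and then Krt79 and Krt4, of which only Krt79 was called. At the opposite end of this cluster, Krt80, Krt7 and Krt87 followed each other and were all called. In the type I cluster Krt19 lay between Krt15 and Krt9, and all 3 were uncalled.

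**Figure D3:**
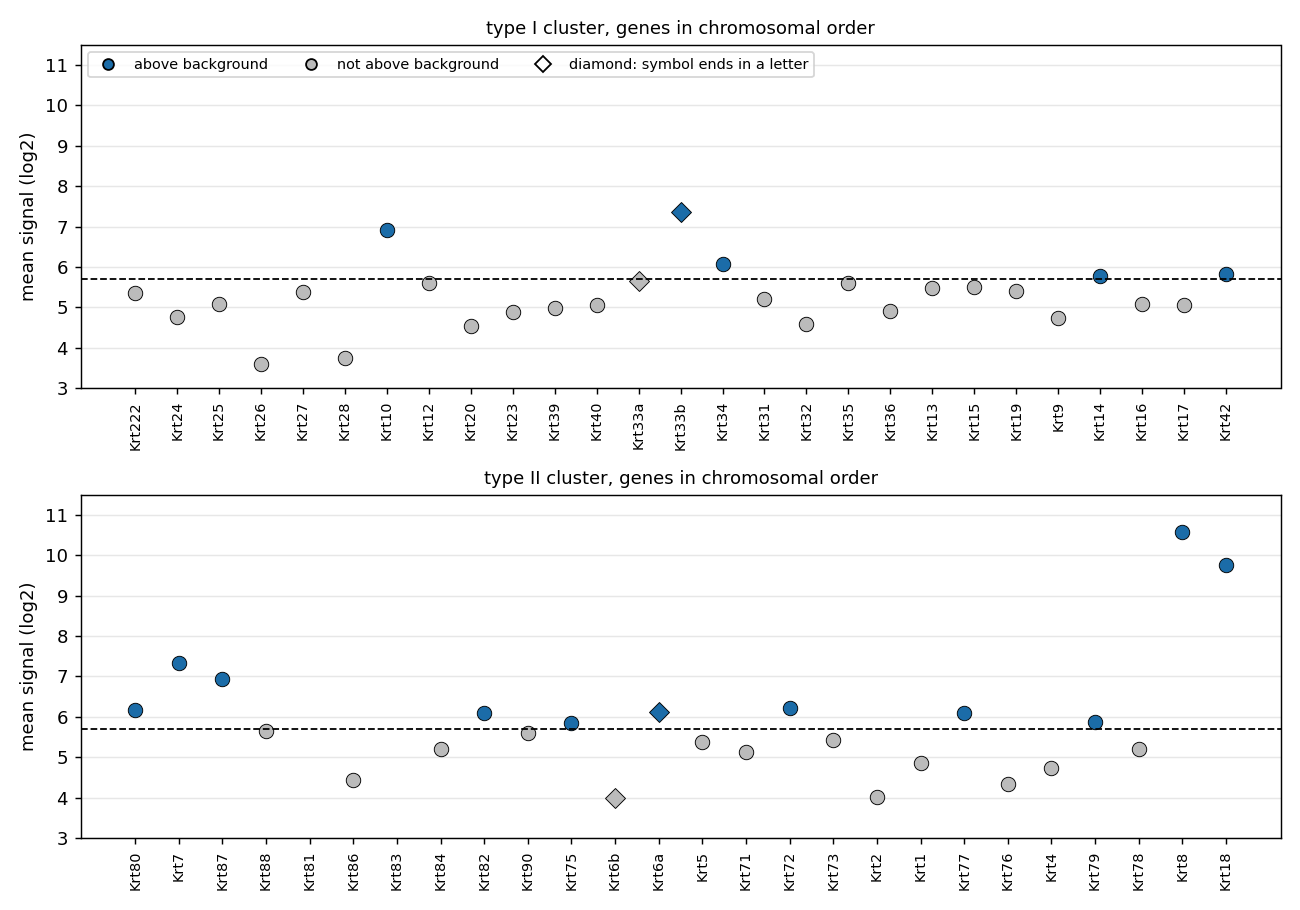
Mean log2 signal (vertical axis, n = 3 arrays) of keratin genes in chromosomal order in the type I cluster (top) and the type II cluster (bottom), blue where above background and grey where not, with the mean cutoff of 5.71 dashed. Diamonds are keratins whose symbol ends in a letter, Krt81 and Krt83 have no point, and Krt8 and Krt18 stand at 10.56 and 9.77 at one end of the type II cluster.

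Keratins whose symbols end in a letter fall outside the set, and their values were looked at afterwards. Krt33b, a type I hair keratin, read 7.35, 7.36 and 7.36 log2 units and passed by 1.65, against 1.62 for Krt7. Its neighbour Krt33a held 5.65 and did not pass. Krt6a read 6.13, 6.13 and 6.12, and its close relative Krt6b held 3.99. These are pairs of close relatives, and whether the probes of one also read the other was not tested.

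RefSeq promoter windows were found for 38 of the 61 genes, and their sequence features were counted. The 16 windows of called genes held a median of 5 CpG dinucleotides and a median GC content of 56.0%, the 24 windows of uncalled genes 3.5 and 45.0%, and all 32851 windows 6 and 52.4%. The TATA box letters TATAAA, searched on both strands, were in 3 of 16 windows of called genes (18.8%), 13 of 24 of uncalled genes (54.2%) and 12.4% of all windows. The GC box letters GGGCGG, on both strands, were in 5 of 16 (31.2%), 0 of 24 and 32.7%. All the uncalled genes here were keratins, while the called ones include desmosome genes, so these contrasts mix both kinds. Most uncalled windows with TATAAA belonged to hair keratins, as did those of the called Krt34 and Krt72, so the TATAAA contrast mixes keratin classes. In the 12 windows of called keratins alone the median was 4 CpG dinucleotides and 52.4% GC, TATAAA was in 3 and the GC box in 2 (16.7%).

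Krt7 alone of the 4 printed windows held GC boxes, 4 in number, 141, 128, 56 and 24 bases before the start. The AP-2 motif GCCNNNGGC, which reads the same on both strands, was in 4 of 16, 2 of 24 (8.33%) and 13.7% of windows, with Krt18 holding 1 and Krt7 holding 2. One of the matches in Krt7 overlaps the GC box 141 bases before the start. The Grainyhead motif AACCGGTT, also the same on both strands, was in none of the member windows and in 0.116% of all. Such matches describe letters and do not mark bound sites.

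The called genes varied between arrays in different ways. Of the 24, 12 held a single value, 6 had a range over 0.2 log2 units and 2, Krt7 and Krt8, over 0.5. Krt8 was 0.43 above its mean on array 1, where the globin genes Hbb-y (10.02, 5.31 and 5.45) and Hba-x (8.89, 5.97 and 5.84) were also high. The other measured red cell markers were not, with Gata1 at 6.03, 6.03 and 6.12 and Rhag at 3.97 on all arrays. Krt7 was 0.48 above its mean on array 2, where the endothelial list was low, and Krt18 stayed within 0.09. The parts of red cells and endothelium in these differences were not tested. Of the 9 nephric duct markers, Gata3 (9.65, 9.28 and 9.35) and Ret (7.21, 6.89 and 6.89) were highest on array 1. Calb1, Pax2 and Lhx1 were highest on array 3, and Emx2, Hoxb7, Pax8 and Wnt9b each held a single value. Desmosomal genes deviated by at most 0.20 log2 units, with array 3 low for Dsc2 and Dsp, high for Pkp2, and array 2 low for Jup.

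**Figure D4:**
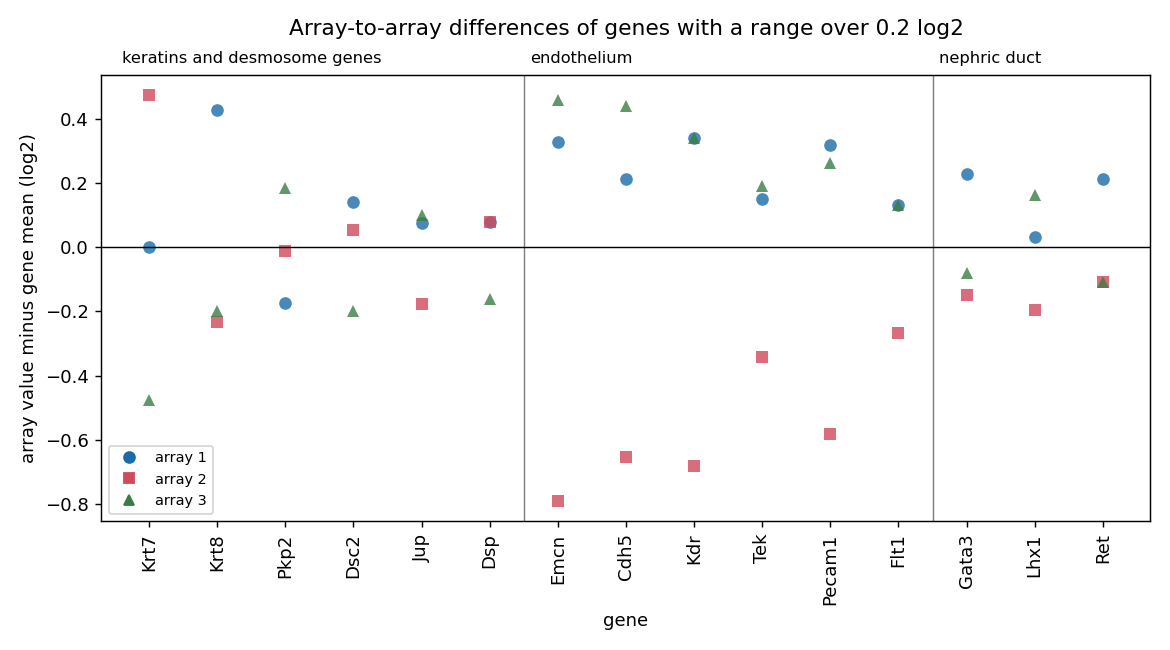
Array value minus the gene's mean over 3 arrays (vertical axis, log2) for the called keratin and desmosome genes and the endothelial and nephric duct markers with a range over 0.2 log2 units. Array 2 is below 0 for all 6 endothelial markers, while for Krt7 it is the highest at 0.48 and for Krt8 array 1 is the highest at 0.43.

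Single values shared by many probe sets limit what many of these signals can tell. Of the 61 genes, 39 held one value on all arrays, against 50.8% of all genes, and 36 (59.0%) had exactly the same 3 values as some other named probe set, against 40.6% of all genes. Krt14 shared its value with 64 other probe sets, among them those of Lmna and Lmnb2. Krt31 and Krt84 each shared theirs with 73 other probe sets, each other included, and Krt17 and Krt40 were also identical. Called genes shared theirs as well, Krt10 with 9 other probe sets and Ppl with 20. The called Krt8, Krt18, Krt7, Krt77, Krt82, Krt42, Jup, Pkp2, Pkp4, Dsc2, Dsp and Dsg2 shared all 3 values with no other probe set. The same held for several uncalled genes, among them Krt2, Krt5, Krt23 and Dsc3.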

How the data were processed

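The samples of sorted duct cells, 3 in number, were hybridised to an Affymetrix mouse array, one array each. The deposited table was made by the authors, and its range of 1.90 to 14.2 reads as log2 signal. The submitters' processing notes name Affymetrix Expression Console. Its version, its algorithm and the genome build are not given in the sources used. Of 35557 probe sets, 14102 held one value on all arrays. The platform annotation gave 21789 probe sets a single symbol and 1621 several. The latter were not used, and 12147 had no name here. Where a gene had several probe sets, the one with the highest mean was used. All 61 genes matched the RefSeq gene table of GRCm38.p6 by symbol.

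The receptor cutoffs of arrays 1, 2 and 3 were 5.69, 5.73 and 5.70. After subtracting them, an intercept was fitted by limma 3.58.1 (R 4.3.3), moderated with 1.13 prior df. On simulated data with an SD of 0.116, 98% of probe sets 0.25 log2 units above the cutoff were called, 100% of those 0.5 above and 0% of those 0.5 below. The simulation gave every probe set this SD, whereas 50.8% of genes here held a single value and Krt7 had an SD of 0.48. These shares therefore do not tell how often such genes are called in the data. No scanner file was used. The precision is limited by the number of arrays.

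The genes, classes and lists were chosen with earlier results of these data known. Named genes were all simple keratins and desmosome genes, every called stratified or hair keratin with each class's 2 highest, 1 lowest and 2 widest-ranging, and the 2 highest and 1 lowest of each neighbouring list. Other genes, chosen after their values were seen, are Krt1, Krt5, Krt15, Krt17, Krt31, Krt40, Krt78, Krt84, Krt4, Krt9, Trp63, Lmna, Lmnb2, Gata3, Ret, Calb1, Pax2, Lhx1, Emx2, Hoxb7, Pax8, Wnt9b, Hbb-y, Hba-x, Gata1, Rhag and those with a letter suffix.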

Additional observations from a re-analysis of the deposited data

How the results depend on the processing

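Counts depended on the cutoff more than on other choices. With the 99th percentile as cutoff 12 of the 61 genes passed, with 1 stratified and 1 hair keratin, and 7190 of all genes. At the 90th percentile 8 stratified keratins passed, and 13047 of all genes. A cutoff 1 log2 unit higher was added after seeing the data. With it 9 of the 61 passed, with 1 stratified keratin, 1 hair keratin and 5 desmosome and plakin genes, and 5653 of all genes. With the spread of single-valued probe sets taken from the others, 3 stratified keratins and 10767 of all genes passed. Leaving out an array gave 3 to 5 stratified keratins and 10364 to 11008 of all genes. The simple keratin count was 2 at the cutoff 1 log2 unit higher and 3 under the other alternatives run. At that higher cutoff Krt7 was not called, although its mean of 7.33 lay above it, with a limma SE of 0.21. After quantile normalization the hair keratin median was 5.21, a shift smaller than the second decimal.

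Margins over the cutoff turned negative at the 99th percentile for Dsg2 (-0.018), Klf4 (-0.13), Kazn (-0.082), Krt72 (-0.16), Krt80 (-0.22), Itgb4 (-0.24), Tgm3 (-0.27), Krt82 (-0.27), Krt77 (-0.28), Krt34 (-0.29), Tgm1 (-0.41), Plec (-0.46), Krt79 (-0.50), Krt75 and Krt42 (both -0.54) and Krt14 (-0.60). With olfactory receptors alone the margin of Krt14 was -0.0098, and at the 90th percentile that of Pkp1 was 0.31. These shifts follow from the height of the cutoff. Of 561 margins recomputed for 51 named genes, 529 kept their call, and 526 kept both direction and call. The margins of Krt19 and Perp turned positive at the 90th percentile, and that of Pkp1 without array 2, with no call. No paired analysis was possible because the samples form a single group. The single values limit the error estimates, and no depth is defined for arrays. No outlier check applies to 3 arrays.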
